A study of Mus musculus with 6 samples.

Results

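Proteins that enter the secretory pathway fold in the endoplasmic reticulum (ER), and 36 genes of ER protein folding and of the integrated stress response were followed here in mouse aorta. They were taken by gene symbol from a table of 41064 genes, and all 36 were found and passed the filter on low counts. Of these, 16 form the ER chaperone branch, 5 encode stress sensors and their factors, 3 serve ER-associated degradation and 12 form the branch under the transcription factor ATF4. The 3 libraries labelled JOSD2 KO and the 3 libraries labelled WT all came from aortas of mice given Ang II, the vasoconstrictor peptide angiotensin II. JOSD2 is a deubiquitinase, an enzyme that removes ubiquitin from proteins. Aortas without angiotensin II were not analysed here, so every difference is one between genotype labels under treatment. Strain, age, kind of knockout allele, dose and duration are not stated in the labels. The design speaks of 3 mice in each group without tying single libraries to mice. The p-values therefore cover only the spread among these libraries, part or all of which may be technical. Differences between mice may not be covered.

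When unfolded proteins collect in the ER, the chaperone BiP, product of Hspa5, is drawn away from the membrane sensors IRE1, PERK and ATF6. IRE1 splices the RNA of Xbp1, ATF6 is cut to a transcription factor, and both then drive genes of chaperones and of ER-associated degradation. PERK and other kinases phosphorylate eIF2, which lowers translation in general and favours that of ATF4, whose targets make and import amino acids, charge tRNAs and include the factor CHOP, product of Ddit3. In the vessel wall, smooth muscle cells and fibroblasts secrete collagens, elastin and fibronectin, which pass through this folding machinery.

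The branches are known for different DNA elements close to the start sites of their genes, and short stretches of RefSeq promoters (build GRCm38.p6) are shown for 4 genes whose transcript levels went different ways. Capitals mark the letters searched for, and each stretch is written 5′ to 3′ on the strand that holds the match. The ER stress element was searched on both strands as CCAAT, 9 further bases and CCACG, its second form as ATTGG, 1 base and CCACG, the C/EBP-ATF element as TGATGNAA, and a further element of the unfolded protein response as TGACGTGG.
Hspa5: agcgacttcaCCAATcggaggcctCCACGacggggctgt
Dnajc3: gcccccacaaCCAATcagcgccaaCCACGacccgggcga
Herpud1, second form of the ER stress element: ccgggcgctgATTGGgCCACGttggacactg
Herpud1, C/EBP-ATF element: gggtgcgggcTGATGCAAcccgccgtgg
Atf3: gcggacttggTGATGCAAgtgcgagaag
The Hspa5 stretch is chr2:34772015-34772053 on the plus strand, the Dnajc3 stretch chr14:118937817-118937855 on the plus strand, and the Atf3 stretch chr1:191183426-191183453 on the plus strand, opposite to the gene. For Herpud1, the second form lies at chr8:94386367-94386397 on the plus strand and the C/EBP-ATF element at chr8:94386307-94386334 on the minus strand, opposite to the gene.

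Promoters from 250 bases before to 50 bases after the start were at hand for 33 of the 36 genes, and Hyou1, Atf6 and Manf were not matched. The ER stress element was found in 7 of 14 genes of the ER chaperone branch (Hspa5, Hsp90b1, Calr, Canx, Pdia6, Dnajc3 and Creld2), in Syvn1 and in 0 of 12 genes of the ATF4 branch, against 37 of all 27025 genes with a promoter (0.137%), these 8 included. The second form was found in Herpud1 and Dnajb11 and in 12 of all genes (0.0444%). The C/EBP-ATF element was found in 5 of 12 genes of the ATF4 branch (Atf3, Chac1, Trib3, Asns and Aars) and in Herpud1, against 1219 of all genes (4.51%). The further element was found in none of the 33 genes' windows, against 193 of all genes (0.714%). A match is only a match of letters.

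**Figure D1:**
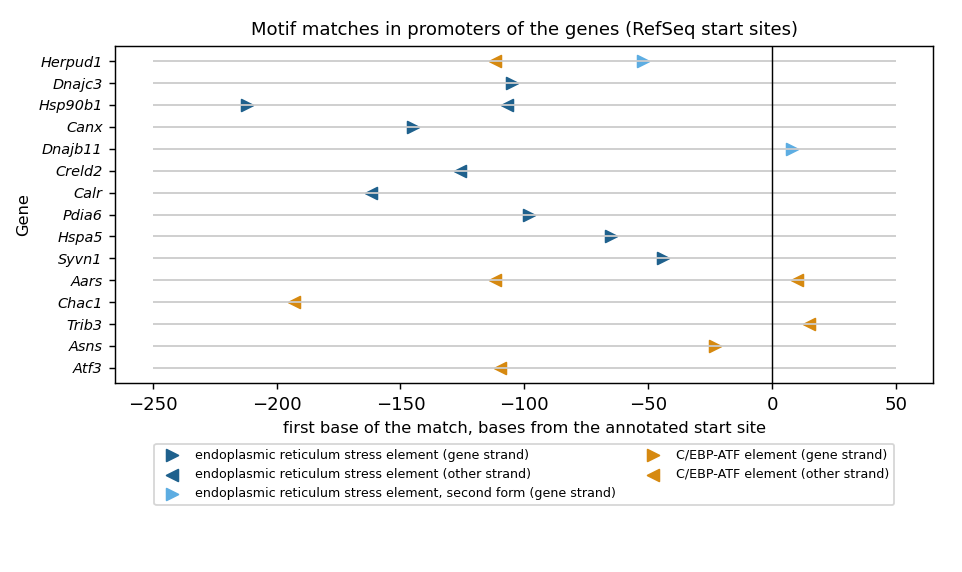
Matches in the promoters of the genes that hold at least 1, with the position of the first base of each match in bases from the RefSeq start site on the x axis and the gene on the y axis; triangles point right for a match on the gene's strand and left for one on the other strand. Matches to the ER stress element lie in the upper rows, in genes of the ER chaperone branch and Syvn1, and matches to the C/EBP-ATF element in the lower rows and in Herpud1.

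The direction of many of these genes turned on how libraries were scaled, so each fold change is given on 2 scales. The deposited counts summed to between 63612353 and 75886761 per library. Transcripts of the mitochondrial genome took 23.8% to 23.9% of the counts in labelled knockout libraries and 36.2% in wild type libraries. TMM, a scaling that sets most genes of all libraries level, gave a median log2 fold change of -0.0031 over the 20132 genes tested, and library totals shifted that median by 0.41. With mitochondrial genes and their 8 nuclear copies left out of the totals, the shift from TMM was 0.03. Levels below are TMM-scaled FPKM, which is the deposited FPKM (fragments scaled to transcript length and library total) divided by the TMM factor, and can be compared between genes. Fold changes are log2 ratios of labelled knockout over wild type from edgeR's quasi-likelihood test, with p-values adjusted over all 20132 genes and a gene called at an adjusted p under 0.05. Since these are bulk samples, fewer cells of a type and less RNA per cell cannot be told apart.

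Josd2 itself, on chromosome 7 from 44467980 to 44471662, was still transcribed in the labelled knockout libraries. It stood at 6.95, 6.39 and 6.86 TMM-scaled FPKM in labelled knockout libraries and at 9.58, 9.93 and 9.41 in wild type libraries, groups that do not overlap. Its log2 fold change was -0.52 (SE 0.07, edgeR adjusted p = 0.000244) and, with library totals, -0.11 (edgeR adjusted p = 0.231). The table has 1 row per gene, so a deletion of some exons cannot be seen. The defining smooth muscle markers were abundant in every library (4 of 6 higher and 1 lower with TMM, 6 of 6 higher with library totals), with 6093 to 6115 summed TMM-scaled FPKM over 6 markers in labelled knockout libraries and 6588 to 6652 in wild type libraries. The lower sum came from Acta2, the 1 marker called lower. It averaged 3097 ± 1.92 in labelled knockout libraries and 3806 ± 14.6 in wild type libraries (SD, n = 3 each).

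With TMM, 24 of the 36 genes were called, 7 higher and 17 lower in labelled knockout libraries, where 24.7% of all genes tested were called, 13.2% higher and 11.5% lower. Their median log2 fold change was -0.16. With library totals, 23 were called higher and 4 lower, where 50.6% of all genes were called, 46.8% higher and 3.81% lower, and the median was 0.25. Calls that held on both scales were higher for Herpud1, Dnajc3, Sel1l, Ern1, Eif2ak3, Crebrf and Ddit3, and lower for Hspa5, Atf3, Psat1 and Mthfd2. As library totals raised log2 fold changes by about 0.41, a higher call could hardly be lost with them. Only lower calls were put to a test by the second scale. The TMM calls of Eif2ak3 and Ddit3 were lost in 5 and 4 of the 6 fits that left out 1 library. A further 8 genes were lower with TMM and higher with library totals, which were Hsp90b1, Calr, Canx, Pdia3, Dnajb11, Hyou1, Ppp1r15a and Aars. With mitochondrial genes and their nuclear copies out of the totals, 20 of the 24 calls made with TMM were made again in the same direction, and Hsp90b1, Dnajb11, Ppp1r15a and Aars were not called.

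**Figure D2:**
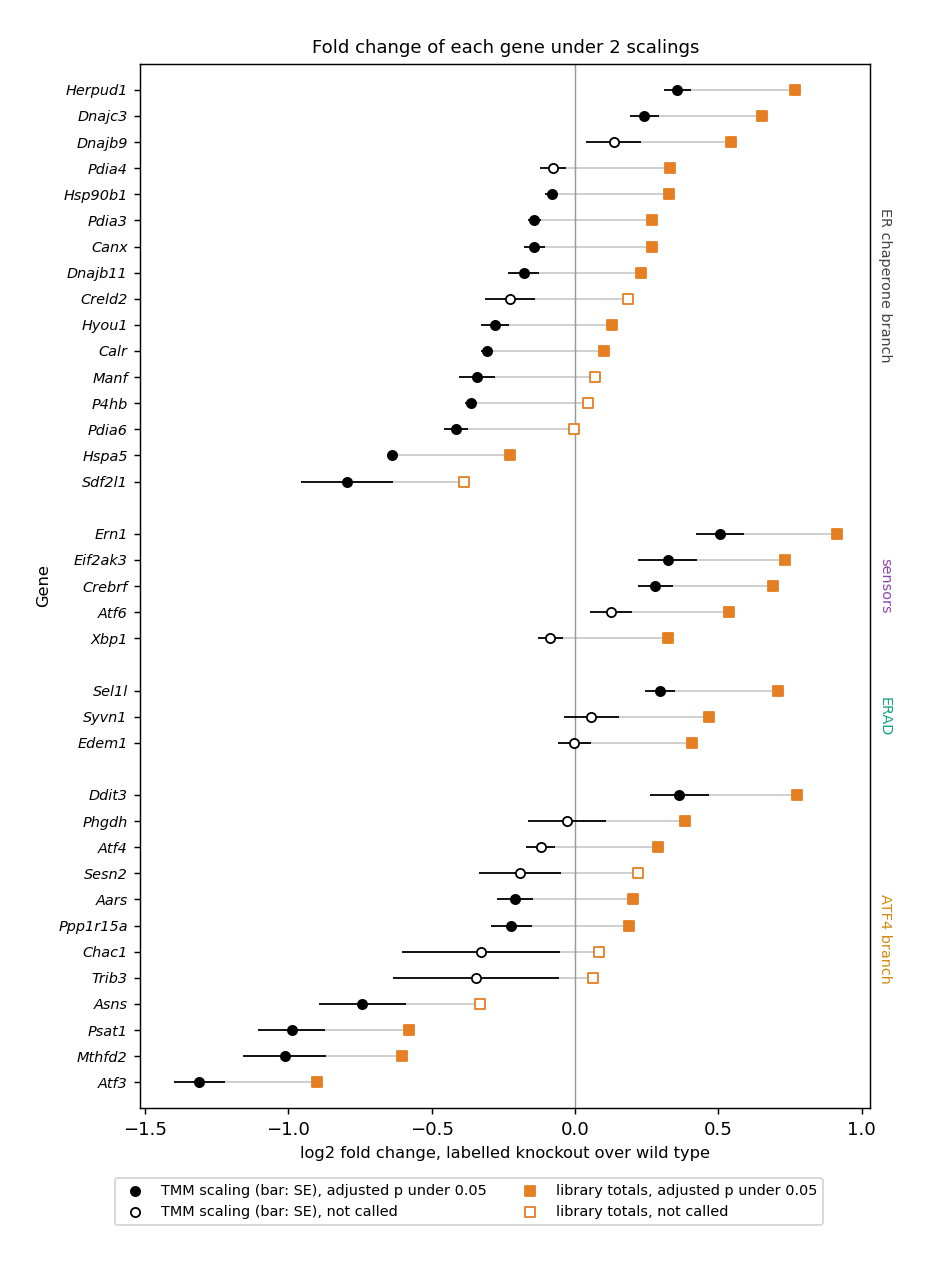
Log2 fold change of each of the 36 genes, labelled knockout over wild type, on the x axis with genes on the y axis, grouped by branch; black circles are TMM scaling with SE, orange squares library totals, and filled symbols were called. Orange squares sit about 0.41 to the right of the circles, and 11 genes have filled symbols on the same side of 0 for both.

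In the ER chaperone branch, 11 of 16 genes were lower, 2 higher and 3 not called with TMM, with a median log2 fold change of -0.20. With library totals 10 were higher, 1 lower and 5 not called, with a median of 0.21. Of all genes tested, 11.5% were lower and 13.2% higher with TMM, and 3.81% lower and 46.8% higher with library totals. The summed level of the 16 genes was 716 to 720 TMM-scaled FPKM in labelled knockout libraries and 848 to 852 in wild type libraries. This sum was taken on the TMM scale only, and with library totals 13 of the 16 log2 fold changes were above 0. The gene of the branch with the smallest p with TMM was Hspa5, the Hsp70 chaperone BiP, which binds exposed hydrophobic stretches of nascent proteins.

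Hspa5, on chromosome 2 from 34771970 to 34777547 on the plus strand, had 64.8, 65.3 and 64.9 TMM-scaled FPKM in labelled knockout libraries, against 99.9, 102 and 101 in wild type libraries. The groups were far apart and each was tight, a spread that may not hold differences between mice. Its level was 1.55-fold lower (log2 fold change -0.64, SE 0.02, edgeR adjusted p = 1.74e-09), and it was also lower with library totals (-0.23, edgeR adjusted p = 4.21e-06). It holds the ER stress element shown above.

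Hsp90b1 encodes GRP94, the ER member of the Hsp90 family, and its promoter holds 2 matches to the same element. It stood at 99.5 ± 2.18 TMM-scaled FPKM in labelled knockout libraries and 105 ± 1.48 in wild type libraries (SD, n = 3 each), a log2 fold change of -0.08 with TMM and 0.33 with library totals, called in opposite directions. Without labelled knockout replicate 1 or 3 or wild type replicate 3 the TMM call was lost (edgeR adjusted p of 0.0236 to 0.105 over the 6 fits). A pseudogene on the opposite strand covers 10.3% of the exon bases of Hsp90b1, and genes on the same strand cover 5.38%. The ratio of Hspa5 to Hsp90b1 within a library does not depend on scaling. It was 0.653 ± 0.0122 in labelled knockout libraries and 0.960 ± 0.0154 in wild type libraries (SD, n = 3 each), with no overlap. This pair and the other pairs of genes set in ratio below were chosen after their values were seen.

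Calreticulin (Calr) and calnexin (Canx) are lectin chaperones that hold glycoproteins until they fold. Calr averaged 121 ± 1.65 TMM-scaled FPKM in labelled knockout libraries and 150 ± 2.12 in wild type libraries (log2 fold change -0.31 with TMM and 0.10 with library totals, called in opposite directions). Canx averaged 37.2 ± 0.729 in labelled knockout libraries and 41.0 ± 1.82 in wild type libraries (-0.14 with TMM and 0.27 with library totals, again called in opposite directions). The TMM call of Canx was lost without labelled knockout replicate 2 or 3 or wild type replicate 1 (edgeR adjusted p of 0.00717 to 0.0696 over the 6 fits).

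Protein disulfide isomerases form and reshuffle disulfide bonds, and P4hb is also the beta subunit of the prolyl hydroxylase that modifies collagen. P4hb averaged 123 ± 0.881 TMM-scaled FPKM in labelled knockout libraries and 158 ± 0.912 in wild type libraries (log2 fold change -0.36, edgeR adjusted p = 1.11e-07, and 0.05 with library totals, edgeR adjusted p = 0.0622). Pdia6 averaged 26.3 ± 0.619 TMM-scaled FPKM in labelled knockout libraries and 35.1 ± 1.77 in wild type libraries (log2 fold change -0.41, edgeR adjusted p = 3.04e-05), and with library totals its groups overlapped. Pdia3, the isomerase that works with calnexin and calreticulin, had a log2 fold change of -0.14 with TMM and 0.27 with library totals. Pdia4 was the gene of the branch nearest to no change with TMM, with 27.8, 25.8 and 26.4 TMM-scaled FPKM in labelled knockout libraries and 29.0, 27.8 and 27.6 in wild type libraries, groups that overlap (log2 fold change -0.08, edgeR adjusted p = 0.259, and 0.33 with library totals).

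Sdf2l1 is a partner of the Hsp40 co-chaperones of BiP. It had 3.66, 3.31 and 3.38 TMM-scaled FPKM in labelled knockout libraries, against 6.13, 5.01 and 6.85 in wild type libraries. The wild type libraries spread widely but all lay above the labelled knockout libraries. Its log2 fold change of -0.80 (SE 0.16, edgeR adjusted p = 0.00387) was -0.39 with library totals (edgeR adjusted p = 0.0697). Hyou1, a large Hsp70-like exchange factor for BiP, and Manf, a secreted ER stress protein, had log2 fold changes of -0.28 and -0.34 with TMM, and 0.13 and 0.07 with library totals. Part of the Manf transcript (8.85% of its exon bases) is covered by genes on the opposite strand, and the use of strand in counting is not given.

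Of the BiP co-chaperones of the Hsp40 family, 1 was called higher, 1 lower and 1 not called with TMM, and all 3 were higher with library totals. The differences between them were not tested. With library totals 46.8% of all genes tested were higher, and with TMM 13.2% were higher and 11.5% lower. Dnajc3, which also inhibits eIF2 kinases and is known as P58IPK, had 23.4, 22.6 and 21.01 TMM-scaled FPKM in labelled knockout libraries and 19.8, 17.8 and 19.2 in wild type libraries. All labelled knockout libraries lay above all wild type libraries, with a log2 fold change of 0.24 (SE 0.05, edgeR adjusted p = 0.00478) and 0.65 with library totals. Dnajb11 was lower with TMM (-0.18, edgeR adjusted p = 0.0325) and higher with library totals (0.23), and the first call was lost in 5 of the 6 fits that left out 1 library, with edgeR adjusted p-values of 0.0249 to 0.132 over those fits. Dnajb9, also called ERdj4, had 11.9, 10.8 and 11.9 TMM-scaled FPKM in labelled knockout libraries and 11.8, 8.92 and 10.8 in wild type libraries, which overlap (0.13, edgeR adjusted p = 0.359, and 0.54 with library totals). Creld2, a resident isomerase, was not called on either scale (-0.23 with TMM and 0.18 with library totals).

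Herpud1 encodes a membrane protein that organises ER-associated degradation, and among the 16 genes of the branch it rose most. On chromosome 8 from 94386438 to 94395377, it had 26.4, 24.6 and 25.3 TMM-scaled FPKM in labelled knockout libraries, against 20.4, 19.5 and 19.7 in wild type libraries. The groups do not overlap. The log2 fold change was 0.36 (SE 0.05, edgeR adjusted p = 0.000231) and 0.77 with library totals. Within libraries, the ratio of Herpud1 to Hspa5 was 0.391 ± 0.0149 in labelled knockout libraries and 0.196 ± 0.00664 in wild type libraries (SD, n = 3 each). Both promoters hold a form of the ER stress element. Of the 7 genes of the branch with the first form, 5 were lower, 1 higher and 1 not called with TMM. With library totals, Hspa5 was lower, 4 of these 7 were higher and 2 were not called.

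**Figure D3:**
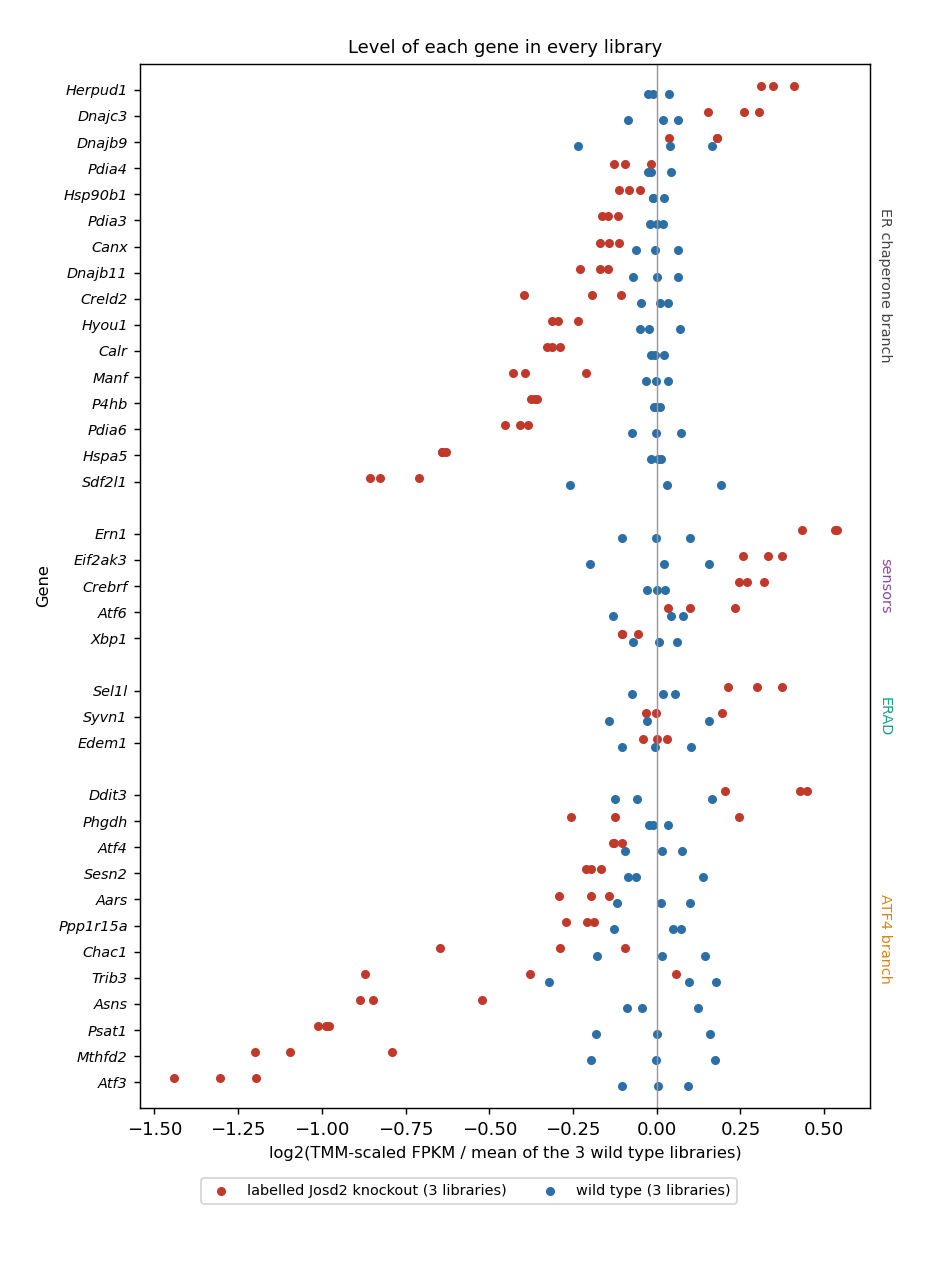
Level of each of the 36 genes in every library, as log2 of the TMM-scaled FPKM over the mean of the 3 wild type libraries on the x axis, with genes on the y axis; red points are labelled knockout libraries and blue points wild type libraries. On this TMM scale, red points of Atf3, Mthfd2, Psat1, Asns, Sdf2l1 and Hspa5 lie left of all blue points of the same gene, and those of Herpud1, Dnajc3, Ern1 and Sel1l lie right of them.

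Among the 5 stress sensors and their factors, 3 were higher and 2 not called with TMM, and all 5 were higher with library totals. Their medians were 0.28 and 0.69. Of all genes tested, 13.2% were higher with TMM and 46.8% with library totals, with medians of -0.0031 and 0.41. Ern1 encodes IRE1, the kinase and endoribonuclease that splices Xbp1 RNA. On chromosome 11 from 106394650 to 106487852, it had 2.22, 2.39 and 2.38 TMM-scaled FPKM in labelled knockout libraries and 1.53, 1.64 and 1.76 in wild type libraries, without overlap. Its level was 1.42-fold higher (log2 fold change 0.50, SE 0.08, edgeR adjusted p = 0.00116) and 0.91 on the log2 scale with library totals.

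Eif2ak3 encodes PERK, which phosphorylates eIF2. It had 2.76, 2.62 and 2.85 TMM-scaled FPKM in labelled knockout libraries and 2.23, 2.45 and 1.91 in wild type libraries. The groups do not overlap, but wild type libraries spread more widely than the gap between the groups. The call (log2 fold change 0.32, SE 0.10, edgeR adjusted p = 0.0411) was lost in 5 of the 6 fits that left out 1 library, with edgeR adjusted p-values of 0.0189 to 0.136, and the log2 fold change was 0.73 with library totals. Crebrf, a regulator of the factor CREB3, was higher on both scales (0.28, edgeR adjusted p = 0.00641, and 0.69 with library totals).

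Xbp1, the RNA that IRE1 splices, had 23.9, 24.0 and 24.8 TMM-scaled FPKM in labelled knockout libraries and 24.5, 25.9 and 26.8 in wild type libraries. The groups overlap, and of the sensors and factors it was the one nearest to no change (log2 fold change -0.09, edgeR adjusted p = 0.185, and 0.32 with library totals). The table gives 1 value per gene, so spliced and unspliced Xbp1 RNA are not separated. Atf6 had 4.27, 3.71 and 3.88 TMM-scaled FPKM in labelled knockout libraries and 3.83, 3.31 and 3.73 in wild type libraries, which also overlap (0.13, edgeR adjusted p = 0.262, and 0.54 with library totals). Cleavage of ATF6 and phosphorylation of IRE1, PERK and eIF2 are protein events that these counts do not measure.

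Of the 3 genes of ER-associated degradation, Sel1l, the adaptor of the ubiquitin ligase HRD1, was higher with TMM, and all 3 were higher with library totals. The shares of all genes tested that were higher were 13.2% with TMM and 46.8% with library totals. Sel1l had 8.49, 9.01 and 9.49 TMM-scaled FPKM in labelled knockout libraries and 6.95, 7.42 and 7.61 in wild type libraries, without overlap (log2 fold change 0.30, SE 0.05, edgeR adjusted p = 0.00176, and 0.71 with library totals). Syvn1, which encodes HRD1 itself, overlapped between the groups (0.06, edgeR adjusted p = 0.732, and 0.47 with library totals). Edem1, a mannosidase-like protein that hands misfolded glycoproteins to degradation, had 7.24, 7.46 and 7.62 TMM-scaled FPKM in labelled knockout libraries and 7.42, 8.01 and 6.93 in wild type libraries. It was the gene with the smallest difference of all 36 with TMM (edgeR adjusted p = 0.988), and its log2 fold change was 0.41 with library totals.

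In the ATF4 branch, 6 of 12 genes were lower, 1 higher and 5 not called with TMM, with a median log2 fold change of -0.27. With library totals 3 were lower, 5 higher and 4 not called, with a median of 0.14. The shares of all genes tested were 11.5% lower and 13.2% higher with TMM, and 3.81% lower and 46.8% higher with library totals. The summed level was 65.4 to 69.7 TMM-scaled FPKM in labelled knockout libraries and 79.3 to 85.7 in wild type libraries. That sum too was taken with TMM only, and with library totals 8 of the 12 log2 fold changes were above 0. Atf4 itself had 26.2, 26.3 and 26.7 TMM-scaled FPKM in labelled knockout libraries and 29.0, 26.9 and 30.2 in wild type libraries. These do not overlap, but the difference was not called (log2 fold change -0.12, SE 0.05, edgeR adjusted p = 0.108), and it was 0.29 with library totals. It was called lower, at an edgeR adjusted p of 0.0312, without wild type replicate 2. ATF4 is controlled mainly at translation, which RNA levels do not show.

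Atf3, a bZIP repressor induced by ATF4 and also an immediate early gene, had the largest fold change of the 36 genes with TMM. On chromosome 1 from 191170296 to 191218039, it had 5.0, 4.54 and 5.39 TMM-scaled FPKM in labelled knockout libraries, against 12.4, 11.5 and 13.2 in wild type libraries. Every labelled knockout library was below every wild type library, by 2.48-fold on average (log2 fold change -1.31, SE 0.09, edgeR adjusted p = 1.31e-06), and the log2 fold change was -0.90 with library totals (edgeR adjusted p = 1.29e-05). Beside it, 8 of 8 other immediate early genes were lower with TMM, among them Fos (-1.32) and Nr4a1 (-0.82), and 6 of 8 with library totals. Their summed level was 141 TMM-scaled FPKM in labelled knockout libraries and 258 to 262 in wild type libraries. Their part in the Atf3 difference was not tested.

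Ddit3, which encodes the factor CHOP, went the other way. It had 9.52, 11.1 and 11.3 TMM-scaled FPKM in labelled knockout libraries and 7.94, 7.59 and 9.28 in wild type libraries. The lowest labelled knockout library and the highest wild type library nearly met. The log2 fold change was 0.36 (SE 0.10, edgeR adjusted p = 0.0251), and 0.77 with library totals. The call with TMM was lost without labelled knockout replicate 2 or 3 or without wild type replicate 1 or 2, with edgeR adjusted p-values of 0.0129 to 0.104 over the 6 fits. Within libraries, the ratio of Ddit3 to Atf4 was 0.403 ± 0.0346 in labelled knockout libraries and 0.288 ± 0.0173 in wild type libraries (SD, n = 3 each). Genes on the opposite strand, Mars among them, cover 4.73% of the exon bases of Ddit3. A second annotated gene, also named Ddit3, covers 6.13% of them on the same strand.

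Of the enzymes of serine, asparagine and one-carbon metabolism in the branch, Mthfd2, Psat1 and Asns were lower with TMM, the first 2 of them also with library totals, and Phgdh was not called with TMM. Mthfd2, the mitochondrial folate dehydrogenase, had 1.63, 1.52 and 2.02 TMM-scaled FPKM in labelled knockout libraries and 3.05, 3.49 and 3.93 in wild type libraries (log2 fold change -1.01, SE 0.14, edgeR adjusted p = 0.000371, and -0.60 with library totals). Psat1, a transaminase of serine synthesis, had 1.5, 1.52 and 1.53 in labelled knockout libraries and 3.38, 2.67 and 3.03 in wild type libraries (-0.99, SE 0.12, edgeR adjusted p = 9.74e-05, and -0.58 with library totals). For both genes all labelled knockout libraries were the lower ones. Asns, asparagine synthetase, had 1.46, 1.83 and 1.42 TMM-scaled FPKM in labelled knockout libraries and 2.87, 2.48 and 2.56 in wild type libraries (-0.74, SE 0.15, edgeR adjusted p = 0.00448). Its groups do not overlap, but with library totals the difference was not called (-0.33, edgeR adjusted p = 0.0982). The ratio of Asns to Atf4 was 0.0596 ± 0.0088 in labelled knockout libraries and 0.0918 ± 0.00711 in wild type libraries (SD, n = 3 each).

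Phgdh, the dehydrogenase that opens serine synthesis, was the gene of the branch nearest to no change with TMM. It had 3.39, 4.79 and 3.71 TMM-scaled FPKM in labelled knockout libraries and 4.14, 4.01 and 3.98 in wild type libraries, with the labelled knockout libraries on both sides of the wild type ones (log2 fold change -0.03, SE 0.13, edgeR adjusted p = 0.911, and 0.38 with library totals). Its transcript shares 84.6% of its bases with the processed copies Gm7901 and Gm9347, so its value is uncertain. The ratio of Psat1 to Phgdh was 0.391 ± 0.0653 in labelled knockout libraries and 0.747 ± 0.0766 in wild type libraries (SD, n = 3 each).

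The remaining genes of the branch had smaller or less certain differences. Ppp1r15a (GADD34), the regulatory subunit that brings a phosphatase to eIF2, averaged 8.38 ± 0.253 TMM-scaled FPKM in labelled knockout libraries and 9.78 ± 0.726 in wild type libraries (log2 fold change -0.22, edgeR adjusted p = 0.0419, and 0.19 with library totals, called in opposite directions). Aars, the alanyl-tRNA synthetase, had a log2 fold change of -0.21 with TMM and 0.20 with library totals, also called in opposite directions, and Exosc6 overlaps 14.3% of its exon bases. The TMM call was lost in 5 of 6 fits without 1 library for Ppp1r15a and in 4 of 6 for Aars, with edgeR adjusted p-values of 0.0164 to 0.149 and 0.0109 to 0.145. The pseudokinase Trib3, the glutathione-degrading enzyme Chac1 and the sestrin Sesn2 were called on neither scale. Trib3 and Chac1 had only 105 to 211 counts per library, and their log2 fold changes of -0.35 and -0.33 with TMM had SE of 0.29 and 0.28.

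**Figure D4:**
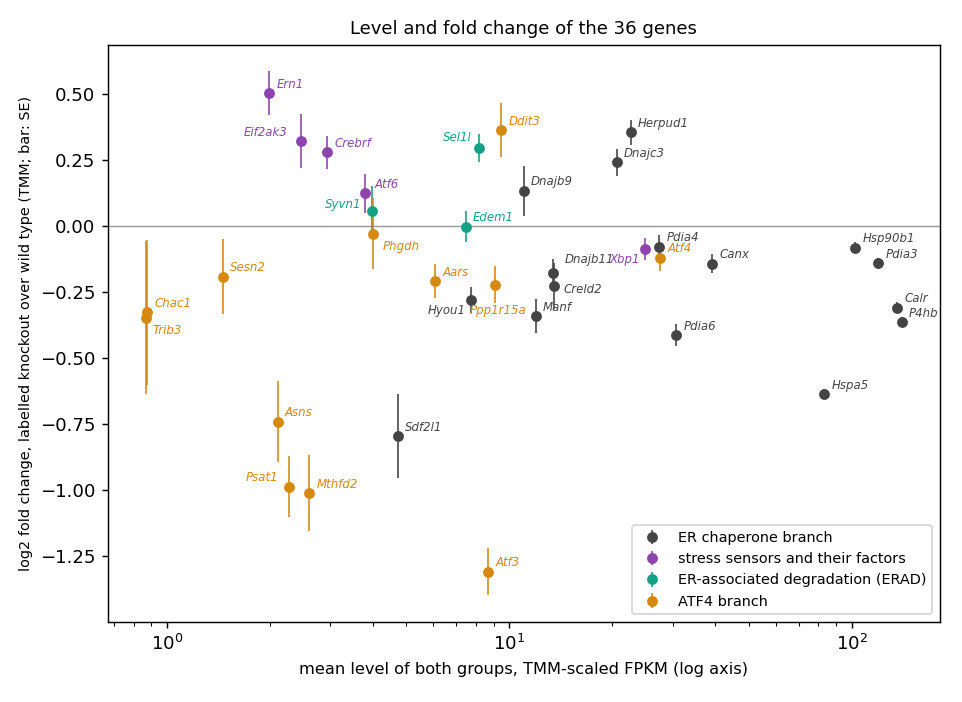
Mean level of each gene over both groups (TMM-scaled FPKM, log axis) on the x axis and log2 fold change of labelled knockout over wild type with TMM on the y axis; bars are SE and colours the 4 branches. Hspa5 stands below the other abundant chaperones at -0.64, and Atf3, Mthfd2, Psat1, Sdf2l1 and Asns have the lowest fold changes. Of the sensors and factors, Ern1, Eif2ak3, Atf6 and Crebrf lie at low levels above 0, and Xbp1 lies at a higher level just below 0.

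The branches were then compared within each library, since a difference of 2 branch means is free of library scaling. Each branch mean is the mean over its genes of log2 CPM (counts scaled to a common library size) centred on the mean of all 6 libraries. The ER chaperone branch averaged -0.10 ± 0.02 in labelled knockout libraries and 0.10 ± 0.04 in wild type libraries, and the ATF4 branch -0.22 ± 0.07 in labelled knockout libraries and 0.22 ± 0.02 in wild type libraries (SD, n = 3 each, TMM). With library totals the ER chaperone branch averaged 0.10 ± 0.02 in labelled knockout libraries and -0.10 ± 0.04 in wild type libraries, and the ATF4 branch -0.011 ± 0.08 in labelled knockout libraries and 0.011 ± 0.02 in wild type libraries. The ER mean minus the ATF4 mean was 0.18, 0.15 and 0.01 in labelled knockout libraries and -0.07, -0.15 and -0.12 in wild type libraries. All labelled knockout libraries were above all wild type libraries, and labelled knockout replicate 3 was nearest to them. The difference of the group means was 0.23, which scaling cannot change, and 0.12 when the median over genes replaced the mean. With medians, labelled knockout replicate 3 (0.013) lay close to wild type replicates 1 (-0.011) and 3 (-0.009). The difference is given as a description, without a test, as the genes were chosen with results of these data known.

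**Figure D5:**
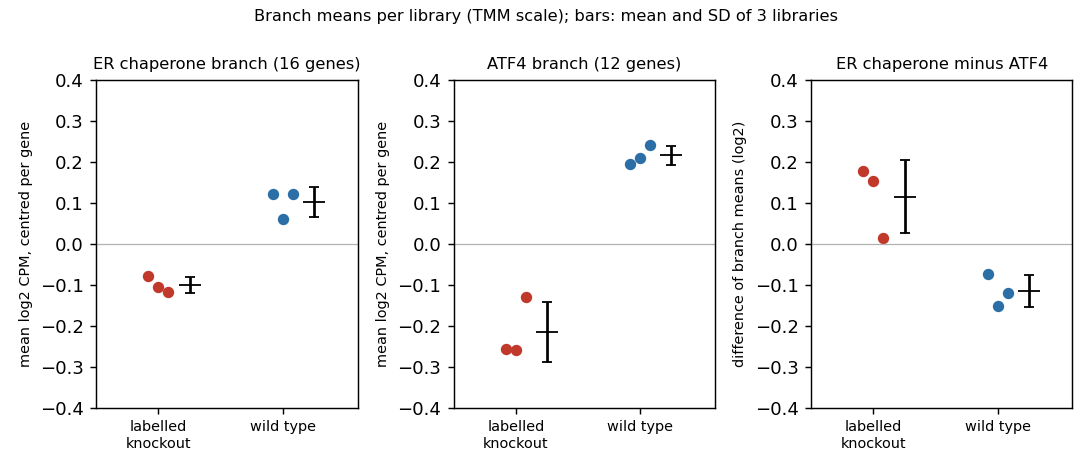
Branch means per library (log2 CPM centred per gene, TMM) of the ER chaperone branch and of the ATF4 branch, and their difference, on the y axes, with labelled knockout libraries (red) left of wild type libraries (blue); bars are the mean and SD of 3 libraries. With TMM labelled knockout libraries are lower in both branches (with library totals the ER branch is higher), and on either scale they are higher in the difference, where 1 of them lies close to 0.

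Other genes of the same pathways were counted in lists that do not include the 36. For all these lists, the background was 13.2% of all tested genes higher and 11.5% lower with TMM. With library totals it was 46.8% higher and 3.81% lower. Of 31 further genes of ER folding and glycosylation, 9 were lower and 1 higher with TMM, and 0 lower and 28 higher with library totals (medians -0.08 and 0.32). Serpinh1, the collagen chaperone HSP47, averaged 167 ± 0.793 TMM-scaled FPKM in labelled knockout libraries and 213 ± 3.40 in wild type libraries (log2 fold change -0.35 with TMM and 0.06 with library totals, called in opposite directions). Stt3a, a catalytic subunit of the oligosaccharyl transferase, had -0.29 with TMM and 0.12 with library totals. Of 16 genes of the translocon and signal peptidase, which bring proteins into the ER, 8 were lower and 1 higher with TMM, and 0 lower and 11 higher with library totals. Sec61a1, the pore of the translocon, averaged 15.8 ± 0.369 TMM-scaled FPKM in labelled knockout libraries and 19.3 ± 0.334 in wild type libraries (-0.29 with TMM and 0.12 with library totals), and Ssr3, a subunit of the translocon-associated complex, had -0.24 and 0.17 on these scales.

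Of 19 further genes of ER-associated degradation, 3 were higher and 2 lower with TMM, and 18 higher and 0 lower with library totals. With TMM these shares are near those of all genes (13.2% higher and 11.5% lower). The lower ones with TMM were Vcp, the ATPase that pulls proteins out of the membrane (-0.20 with TMM and 0.21 with library totals), and Ube2g2, a ubiquitin-conjugating enzyme (-0.25 and 0.16). They are named for the smallest p of the list, in which log2 fold changes reached 0.40 with TMM. Of 12 genes of COPII export vesicles, 2 were higher and 1 lower with TMM, and all 12 higher with library totals. Sec13, of the vesicle coat, had -0.28 with TMM and 0.13 with library totals, while Preb, which activates the coat GTPase SAR1, was higher on both (0.33 and 0.74). Of 7 other ER membrane factors and proteases, 2 were higher with TMM and all 7 with library totals. Both were higher on either scale: Mbtps1, the protease that cuts ATF6, averaged 9.56 ± 0.089 TMM-scaled FPKM in labelled knockout libraries and 7.70 ± 0.332 in wild type libraries (0.31 and 0.72), and Creb3l2, a relative of ATF6, had 0.20 and 0.61.

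On the eIF2 side, 3 of 13 tested genes were higher and 2 lower with TMM, and 9 higher and 0 lower with library totals. Eif2s1, the subunit of eIF2 that the kinases phosphorylate, averaged 4.60 ± 0.284 TMM-scaled FPKM in labelled knockout libraries and 6.34 ± 0.792 in wild type libraries (log2 fold change -0.46, edgeR adjusted p = 0.00369, and -0.05 with library totals, edgeR adjusted p = 0.686). Eif2s2, another subunit, had -0.29 with TMM and 0.12 with library totals. These 2 genes had the smallest p of the list and were its 2 lower ones. Log2 fold changes of the list reached 0.41 with TMM. Of 19 further cytosolic aminoacyl-tRNA synthetases, 3 were lower and 0 higher with TMM, and 0 lower and 15 higher with library totals. Gars averaged 11.7 ± 0.463 TMM-scaled FPKM in labelled knockout libraries and 17.0 ± 0.678 in wild type libraries (-0.54 with TMM and -0.13, not called, with library totals), and Nars had -0.24 and 0.17.

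Of 26 further known ATF4 targets, 6 were higher and 4 lower with TMM, and 15 higher and 2 lower with library totals, and 16 of the 26 were not called with TMM. Of all genes tested, 13.2% were higher and 11.5% lower with TMM, and 46.8% higher and 3.81% lower with library totals. The 4 with the smallest p kept their direction on both scales, which the higher ones could hardly fail to do given the shift. Slc1a5, a glutamine importer, averaged 30.0 ± 0.205 TMM-scaled FPKM in labelled knockout libraries and 18.2 ± 0.746 in wild type libraries (log2 fold change 0.72 with TMM and 1.13 with library totals). Ddit4, the mTORC1 inhibitor REDD1 that also answers to glucocorticoids and hypoxia, averaged 22.1 ± 1.07 in labelled knockout libraries and 12.6 ± 1.39 in wild type libraries (0.81 and 1.22). Slc38a2, a neutral amino acid transporter, had 0.24 and 0.65. Nupr1, a stress-induced chromatin protein, averaged 105 ± 1.46 in labelled knockout libraries and 167 ± 4.92 in wild type libraries (-0.67 and -0.26).

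Genes of the matrix cargo and markers of cell types also differed between the groups, in some lists not all in 1 direction. These are RNA levels of bulk samples, not counts of cells. For every marker list, those above included, the background was 13.2% of all tested genes higher and 11.5% lower with TMM. It was 46.8% higher and 3.81% lower with library totals. All 12 genes of secreted matrix were lower with TMM (median log2 fold change -0.62), and 9 lower and 3 higher with library totals. Eln averaged 464 ± 2.68 TMM-scaled FPKM in labelled knockout libraries and 1069 ± 7.35 in wild type libraries, and the 12 genes summed to 2664 to 2686 in labelled knockout libraries and 4383 to 4432 in wild type libraries. Macrophage markers (5 of 6 lower with TMM, and 4 lower and 1 higher with library totals) summed to 155 to 156 in labelled knockout libraries and 347 to 362 in wild type libraries, and markers of proliferating cells (6 of 6 lower on both scales) to 2.23 to 2.48 in labelled knockout libraries and 9.19 to 11.7 in wild type libraries. Endothelial markers (6 of 6 higher on both scales) summed to 80.5 to 81.2 in labelled knockout libraries and 45.9 to 46.5 in wild type libraries. Among fibroblast markers 4 of 6 were lower and 2 higher with TMM and 5 of 6 higher with library totals, and they summed to 383 to 389 in labelled knockout libraries and 437 to 445 in wild type libraries.

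Plasma cells, which carry a large ER, had 1 of 5 tested markers higher with TMM (Jchain) and 2 of 5 with library totals. Both counts are near the shares of all genes (13.2% with TMM and 46.8% with library totals). The plasma cell markers had sums of 17.0 to 17.3 TMM-scaled FPKM in labelled knockout libraries and 11.5 to 13.8 in wild type libraries. White adipocyte markers (3 of 6 higher on both scales) summed to 174 to 184 in labelled knockout libraries and 105 to 106 in wild type libraries. Markers of brown adipocytes (2 of 5 tested) and of T cells and thymocytes (3 of 6) were higher with TMM, and markers of lung epithelium (4 of 5), kidney epithelium (1 of 3 tested) and seminal vesicle (3 of 4 tested) were lower, with the same numbers called with library totals. Lung markers summed to 1.07 to 1.39 in labelled knockout libraries and 10.8 to 13.9 in wild type libraries. Kidney markers summed to 0.204 to 0.375 in labelled knockout libraries and 9.61 to 10.4 in wild type libraries, and those of T cells and thymocytes to 1.93 to 2.50 in labelled knockout libraries and 0.711 to 1.14 in wild type libraries. Of the 3 kidney markers tested, only 1 had a log2 fold change below 0 with TMM (-5.54), and 2 were above 0 (up to 1.61, not called). The seminal vesicle genes Svs2 and Svs4 were at 0 counts in all 3 labelled knockout libraries. The brown adipocyte gene Elovl3 and the kidney gene Umod were at 0 there and also in 2 of the 3 wild type libraries, and were not tested. Seminal vesicle markers summed to 0.169 to 0.381 in labelled knockout libraries and 2.49 to 4.15 in wild type libraries, and brown adipocyte markers to 34.3 to 40.0 in labelled knockout libraries and 19.3 to 22.8 in wild type libraries. The brown adipocyte sum rested mainly on Dio2 (log2 fold change 1.06 with TMM) and Cidea (0.62), while Ucp1 (-0.24), Ppargc1a (-0.32) and Cox8b (0.05) were not called on either scale. Of 6 striated muscle markers, 1 was higher and 1 lower with TMM, and 3 higher and 1 lower with library totals. Their higher calls are near the shares of all genes on both scales. The part of these cell types and of the matrix cargo in the differences of the 36 genes was not tested.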

How the data were processed

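RNA of 6 aorta samples was measured by paired-end poly(A) sequencing, per the labels' protocols, which also speak of an adipose tissue. Per the submitters' processing notes, HISAT2 2.0, Bowtie 0.12.2 and the build mm8 were involved. Which counter, annotation, filters and strand setting were used is not given in the sources used. The table's gene coordinates equal those of GENCODE M21 (GRCm38) for 32 of the 36 genes, and are printed as deposited.

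The deposited counts are whole numbers with a peak at 4, and were treated as estimated counts made by the authors. Rounding changed 0 of them. The deposited FPKM were scaled by the authors to library totals that include mitochondrial genes, as their ratios to the counts show. The number of read pairs behind a count is not stated, so no counting interval is given.

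Genes that passed filterByExpr were fitted with edgeR 4.0.16 in R 4.3.3 (TMM, quasi-likelihood test, all 6 libraries, no covariate, Benjamini-Hochberg adjustment, threshold 0.05). SE is the absolute log2 fold change over the square root of F. The steps were tested on simulated data. These held no difference in mitochondrial share between the groups, so they cannot show which scaling is right. Alternatives used DESeq2 1.42.0, limma 3.58.1 on FPKM, other scalings and filters, the replicate number as a block, and each library left out. Transcript copies were sought with BLAST+ 2.17.0.

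The 36 genes, the other lists and the tests were chosen with earlier results of these data known. Values of each library are given for genes called with an absolute log2 fold change of at least 0.5, for Xbp1, Atf6, Ern1, Eif2ak3, Atf4 and Ddit3, and for the gene of each branch nearest to no change. Of other pathway lists up to 4 genes with the smallest p are eligible, 2 of which are given (4 for ATF4 targets), and of marker lists up to 2 with the highest mean count. Herpud1, Dnajc3, Dnajb9 and Sel1l are shown by library outside this rule, chosen after their values were seen, as were Jchain, the brown adipocyte markers and the markers at 0. The promoters printed were chosen in the same way.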

Additional observations from a re-analysis of the deposited data

How the results depend on the processing

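Scaling changed directions and counts of calls. Relative to TMM, library totals and limma on log2(FPKM + 0.1) or log2(FPKM + 1) turned the log2 fold change above 0 for Aars (0.20 and 0.17), Atf4 (0.29 and 0.28), Calr (0.10), Canx (0.27 and 0.26), Chac1 (0.084, 0.066 and 0.037), Creld2 (0.18 and 0.17), Dnajb11 (0.23 and 0.21), Edem1 (0.41, 0.40 and 0.36), Eif2s2 (0.12 and 0.10), Hsp90b1 (0.33 and 0.32), Hyou1 (0.13 and 0.11), Manf (0.069, 0.064 and 0.0599), Nars (0.17 and 0.16), P4hb (0.046, 0.045 and 0.044), Pdia3 (0.27), Pdia4 (0.33 and 0.32), Phgdh (0.38, 0.36 and 0.29), Ppp1r15a (0.19 and 0.17), Sec13 (0.13), Sec61a1 (0.12 and 0.11), Serpinh1 (0.061, 0.0598 and 0.059), Sesn2 (0.22, 0.21 and 0.13), Ssr3 (0.17 and 0.16), Stt3a (0.12 and 0.11), Trib3 (0.063, 0.028 and 0.021), Ube2g2 (0.16, 0.15 and 0.14), Vcp (0.21 and 0.20) and Xbp1 (0.32 and 0.31). Library totals without mitochondrial genes did so for Hsp90b1 (0.074), Canx (0.014), Pdia3 (0.014), Pdia4 (0.077), Xbp1 (0.069), Edem1 (0.15), Atf4 (0.035) and Phgdh (0.13). Josd2 was not called in the first 3 of these fits (-0.11 and -0.097). In the same order (library totals, limma with 0.1, limma with 1), genes called in the ER chaperone branch numbered 10, 9 and 9 higher and 1, 2 and 2 lower, in the ATF4 branch 5, 4 and 3 higher and 3 in each lower, 5 sensors and factors and 3 genes of ER-associated degradation higher, 115, 111 and 112 other pathway genes higher and 2, 3 and 3 lower, and 9425, 9330 and 9447 of all genes higher and 768, 866 and 867 lower. Median log2 fold changes were 0.21, 0.20 and 0.19 in the ER chaperone branch and 0.14, 0.13 and 0.084 in the ATF4 branch. Library totals without mitochondrial genes gave 4 higher and 6 lower in the ER chaperone branch, 43 higher and 11 lower in other pathway lists, and 4911 higher and 1361 lower over all genes.

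Leaving out 1 library at a time gave 0 to 1 higher and 4 to 5 lower genes in the ATF4 branch (0 higher without labelled knockout replicate 2 or 3 or wild type replicate 1 or 2), 8 to 11 lower in the ER chaperone branch, and 2 to 3 higher sensors and factors. All 6 of these fits made 17 of the 24 calls, and Hsp90b1, Canx, Dnajb11, Eif2ak3, Ddit3, Ppp1r15a and Aars lost theirs in at least 1. Over these fits the log2 fold change was -0.014 to 0.14 for Syvn1, -0.049 to 0.057 for Edem1 and -0.18 to 0.075 for Phgdh, and the median of ER-associated degradation -0.00053 to 0.14. Edem1 was also above 0 with DESeq2 (0.0051), without the filter (0.028) and with totals that leave out mitochondrial genes and their copies (0.027), and Phgdh in the last 2 (0.0019 and 0.00054). The difference of branch means was 0.12 with medians over genes. DESeq2 made all 24 calls and also called Creld2 lower. Without a filter on low counts, Hsp90b1, Canx, Dnajb11, Ppp1r15a and Aars were not called. With a mean FPKM of at least 1 or counts divided by 4, Atf4 and Creld2 were called lower.

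Deviations of log2 CPM from the group means correlated at 0.082, 0.0018 and 0.0097 between same-numbered libraries of the 2 groups. Between libraries with different numbers they correlated at -0.047 to 0.039. With 3 libraries per group, these values show no clear pairing by replicate number but cannot exclude one. With the replicate block, 21 of the 24 calls were made, and Dnajb11, Eif2ak3 and Aars had edgeR adjusted p-values of 0.0575, 0.061 and 0.0516, while the log2 fold change of Edem1 was 0.00028. TMM without mitochondrial genes, and totals without these genes and their nuclear copies, were added after seeing the data. Beside the scalings, the cause of a change of sign or a lost call was not tested. Trib3, Chac1 and Sesn2 had the fewest counts among the genes not called, and the part of depth in that was not tested.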
